A study of Mus musculus with 10 samples.

Results

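The genes examined were those of the mitochondrial ribosomal proteins, taken as every gene whose only platform symbol begins with Mrpl or Mrps and a number. Each was represented by 1 probe set, the one with the highest mean over the 10 arrays. The rule found 71 of the 22180 genes with a single symbol, 43 Mrpl genes and 28 Mrps genes. It left out Mrpl30, Mrpl33, Mrpl41, Mrpl43, Mrpl44, Mrpl53 and Mrps6, which stand on probe sets that name more than 1 gene. All 71 Entrez identifiers were found in the RefSeq gene table with the same symbol. The samples were regulatory T (Treg) cells of mice, a class of CD4 T cells that express Foxp3 and hold immune responses in check. They were sorted out of mixed bone marrow chimeras and lysed with no culture step. There were 5 wild-type (WT) samples and 5 in which Stk11, the gene of the kinase LKB1, was deleted. Each sample was hybridised to its own array, and the values are log2 signals. In such a chimera donor cells of more than 1 genotype develop in the same host, so both groups come from reconstituted animals and not from intact ones. The sources used here do not give the allele, the Cre driver, the age and sex of the animals or any pooling. They also do not say whether each array of a group stands for an animal of its own. A p-value here therefore speaks only of the spread among these arrays, and that spread may be technical.

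Mitochondria keep ribosomes of their own, the mitoribosomes, which translate the few messenger RNAs of the mitochondrial genome. Those messages encode core subunits of the respiratory chain and of ATP synthase. The RNAs of the mitoribosome are transcribed inside the organelle, whereas all of its proteins are encoded in the nucleus, made in the cytosol and imported. Proteins of the large subunit (Mrpl) surround the peptidyl transferase centre and the exit tunnel, and those of the small subunit (Mrps) surround the decoding site. Some have relatives in bacterial ribosomes and others occur only in mitochondria. The sets are not pure by name, since Mrps18a and Mrps30 are proteins of the large subunit, and Mrps36 is now placed with the oxoglutarate dehydrogenase complex. Treg cells are known to rely on mitochondrial respiration, and LKB1 is known as an upstream kinase of AMPK, a sensor of the cell's energy state.

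Stk11 had log2 signals of 6.61, 6.69, 6.75, 6.95 and 6.92 on WT arrays 1 to 5 and of 6.57, 6.01, 6.05, 6.71 and 6.78 on Stk11 deletion arrays 1 to 5. The groups overlapped, and a difference of -0.36 (SE 0.16) was not called by the test used throughout, limma's moderated test with Benjamini-Hochberg adjustment over all 22180 genes and a threshold of 0.05 (adjusted p = 0.335). The sources used here do not say whether the probe set covers the deleted exons, so it may check the labels only in part. All differences are log2 values, Stk11 deletion minus WT, and SE is the limma model's standard error. Treg markers used for the check (Foxp3, Il2ra, Ctla4, Ikzf2, Cd4 and Cd3e) were all measured, with array means of 10.64 to 10.72 on WT arrays and of 10.02, 10.82, 10.87, 10.57 and 10.51 on Stk11 deletion arrays 1 to 5. Arrays 1, 4 and 5 were thus below the WT range of the Treg list mean and arrays 2 and 3 above it. Foxp3 itself was at 9.86, 11.41, 11.50, 11.29 and 11.10 on Stk11 deletion arrays 1 to 5, against 10.95 to 11.19 on WT arrays. It was thus below the WT range on array 1 only. Markers of macrophages (11 genes) had means of 8.12, 7.60, 7.94, 10.53 and 10.64 on Stk11 deletion arrays 1 to 5, against 7.51 to 7.99 on WT arrays. B cell markers (7 of 8 measured) were at 6.82, 5.51, 5.61, 6.59 and 6.96, against 5.23 to 5.62, and NK cell markers (6 genes) at 5.95, 4.91, 5.23, 5.31 and 5.39, against 4.69 to 4.81. Of the macrophage, B cell and NK lists, Klrd1 of the NK list was the only gene called (higher). The 4 erythroid markers have no probe set of their own here. Stk11 deletion arrays 4 and 5 stood far above the WT range of the macrophage marker mean, and array 1 slightly above it. In the B cell marker mean arrays 1, 4 and 5 were above it. Arrays 2 and 3 lay within the WT range of both means, though not for every single gene. The NK marker mean was above the WT range on all 5 Stk11 deletion arrays. In samples of whole cells, fewer Treg cells and less RNA per Treg cell cannot be told apart.

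Most transcripts of mitochondrial ribosomal proteins had somewhat lower mean signals in the Stk11 deletion samples, and few passed the test one by one. Of the 71 genes, 66 had a negative difference, and the median difference was -0.27, a level 1.20-fold lower. Over all genes the median was 0.0034, and 49.2% of them had a negative difference. Only 6 members passed the test, all of them lower: Mrpl45, Mrpl35, Mrpl51 and Mrpl52 of the large subunit and Mrps17 and Mrps10 of the small subunit. Over all genes 1.06% were called, 0.83% lower (184 genes) and 0.234% higher (52 genes). After a second quantile normalization 103 genes were lower and 67 higher, and 3 members were called lower. Without the dimmest 40% of genes, a filter that all 71 members passed, 7 members were called lower. So were 284 of the 13308 genes kept (2.13%). The median of the genes kept was -0.041 and 58.2% of them had a negative difference. The other 65 members did not pass (adjusted p = 0.0567 to 0.970), and for 27 of them the 95% confidence interval of the difference lay below 0. At an unadjusted p under 0.05 there were 33 members lower (46.5%) and 1 higher, against 8.8% and 5.19% of all genes and 13.7% lower among those above the dimmest 40%.

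**Figure D1:**
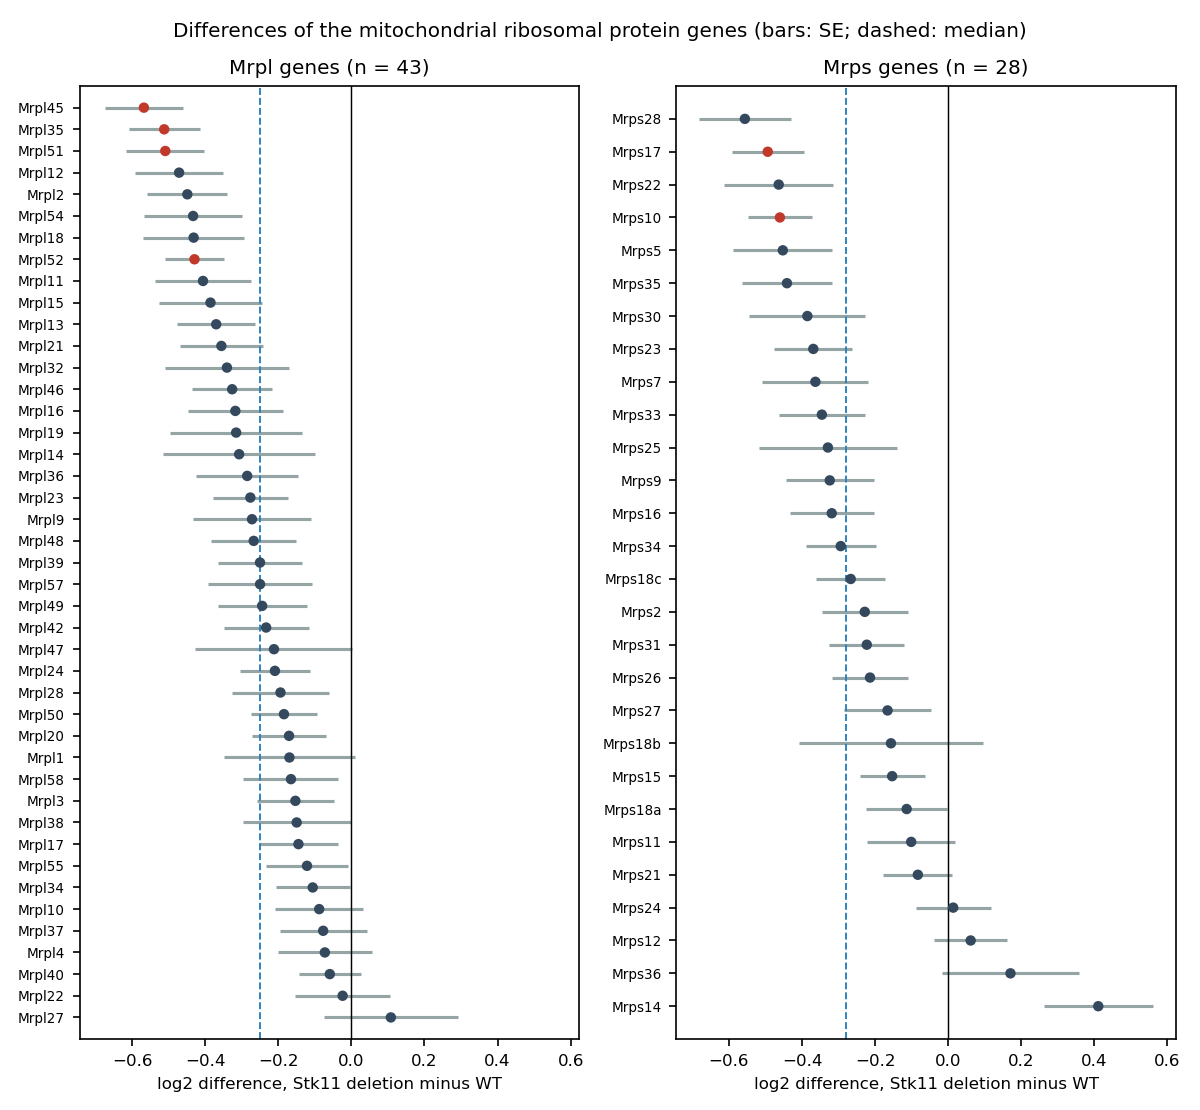
Log2 difference, Stk11 deletion minus WT, of each of the 43 Mrpl and 28 Mrps genes, with bars for the standard error and a dashed line at the median of each panel (-0.25 and -0.28). Red points are the 6 genes called by limma, and 42 Mrpl and 24 Mrps points lie left of 0.

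The shift was seen on every Stk11 deletion array and not on 1 array alone. The median log2 signal of the 71 genes was 7.71, 7.62, 7.64, 7.65 and 7.49 on WT arrays 1 to 5 and 7.29, 7.34, 7.32, 7.25 and 7.45 on Stk11 deletion arrays 1 to 5. The groups did not overlap in this median. Taken as deviations from each gene's WT mean, the Stk11 deletion arrays had medians of -0.32, -0.23, -0.21, -0.30 and -0.17, against -0.058 to 0.036 on the WT arrays. The deviation of all genes stayed between -0.027 and 0.012 on every array. Arrays 2 and 3, whose macrophage and B cell marker means lay within the WT range, had deviations of -0.23 and -0.21. Single markers did not all lie within it. Lyz2 was above it on both, at 9.68 and 9.76 against at most 9.57 on WT arrays. On array 2 Adgre1, C1qb, Fcer1g, Hmox1 and Vcam1 were below it, Hmox1 furthest, at 8.32 against at least 9.11. On array 3 Cd68, Fcer1g, Hmox1 and Spic were above it, Cd68 furthest, at 8.89 against at most 8.46. Of the B cell markers Cd79b (8.25 against at most 7.61) and Cd22 were above it and Ms4a1 below it on array 2. Jchain and Mzb1 were above it on array 3. On array 2 both list means thus average genes above and below the range. The NK marker means of arrays 2 and 3, 4.91 and 5.23, were above the WT range. Over all arrays the genes of that list were uneven. Klrd1 differed by 1.53, Eomes by 0.70, Gzma by 0.61 and Prf1 by 0.56, but Ncr1 by 0.11 and Klrb1c by 0.088. Whether the list stands for NK cells here, and the part of other cells in the result, was not tested. Without arrays 1, 4 and 5 the median difference of the members was -0.22, and with the macrophage and B cell marker means as covariates it was -0.24. The number of members below the lowest WT array was 46, 47, 42, 55 and 35 on Stk11 deletion arrays 1 to 5. The number above the highest WT array was 8, 2, 5, 4 and 6. All 5 arrays were below in 16 members, 4 in 14, 3 in 19, 2 in 12, 1 in 8 and none in 2. The shares of all genes outside the WT range on single arrays were not counted. All genes also spread more widely between the Stk11 deletion arrays, with a median SD of 0.209 against 0.154 in WT. The 16 members whose groups did not overlap were all lower and 0 were higher, where 3.71% of all genes had non-overlapping groups with lower and 0.996% with higher values. The 16 are 22.5% of the members, and 5.99% of the genes above the dimmest 40% had lower values without overlap.

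**Figure D2:**
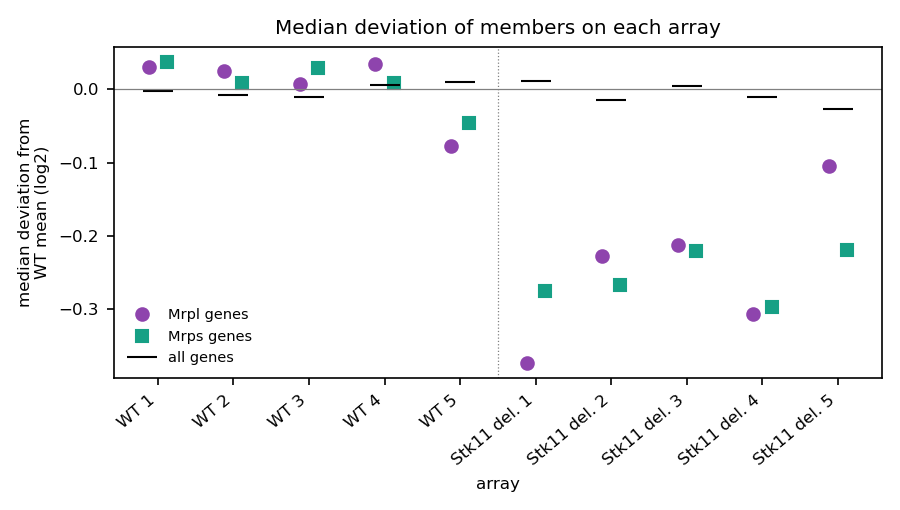
Median deviation from the WT mean (log2) of the Mrpl genes (circles), the Mrps genes (squares) and all genes (dashes) on each of the 10 arrays. All 5 Stk11 deletion arrays lie below all WT arrays for both subunits, and the subunits lie furthest apart on Stk11 deletion arrays 1 and 5.

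Large and small subunit genes had similar median differences. The 43 Mrpl genes had a median difference of -0.25 (quartiles -0.36 and -0.16), with 42 negative, and the 28 Mrps genes one of -0.28 (quartiles -0.37 and -0.14), with 24 negative. The gap between these medians was 0.030. On single arrays the gap between the median deviations of the subunits had an SD of 0.0575 within a group. That SD is a spread of single arrays, and no standard error of the gap of 0.030 was computed. With Mrps18a and Mrps30 counted in the large subunit and Mrps36 left out, the medians were -0.25 and -0.29. On Stk11 deletion array 1 the Mrpl genes deviated by -0.37 and the Mrps genes by -0.27. Array 5 had the opposite order, with -0.10 and -0.22. The sign of the gap turned without that array, to -0.035. The Mrps genes had differences from -0.56 to 0.41 and an SD of 0.22 over genes, against -0.57 to 0.11 and 0.15 in the Mrpl genes. The highest Mrps differences, of Mrps14 (0.41) and Mrps36 (0.17), came from low signals that cannot be told from background. The next highest was that of Mrps12, at 0.062. The SD without Mrps14 and Mrps36 was not computed, so a wider spread of the small subunit is not established.

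**Figure D3:**
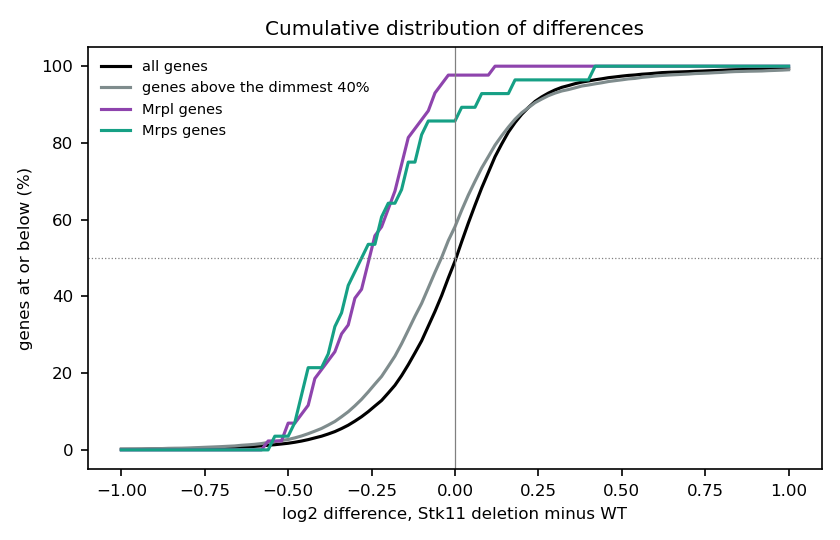
Cumulative share of genes (%) at or below each log2 difference, Stk11 deletion minus WT, for the Mrpl genes, the Mrps genes, all genes and the genes above the dimmest 40%. Both subunit curves lie left of the curves of the wider sets over most of their range, and they cross each other.

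Genes listed with and without a bacterial relative also had similar medians. The 43 members listed with a bacterial relative, in both subunits together, had a median of -0.27 with 39 negative. The 27 listed as specific to mitochondria had -0.25 with all 27 negative. The latter include Mrps18a and Mrps18b, which descend from the same bacterial gene as Mrps18c, so the split is not clean. Within the large subunit by structure the medians were -0.27 (28 genes, 1 called) and -0.25 (17 genes, 3 called). Within the small subunit they were -0.27 (15 genes, 2 called) and -0.31 (10 genes, 0 called, 6 at an unadjusted p under 0.05). No test was made of these gaps. The spread between arrays was wider in the Stk11 deletion group, whose SD was the larger in 58 of the 71 members, with a median SD of 0.215 against 0.128 in WT. The median SD over all genes was also the larger in that group, 0.209 against 0.154.

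The promoters of the 6 called genes are shown so that the sequence next to their start sites can be set beside their values. Each window runs from 150 bases before to 30 bases after the start listed in RefSeq (GRCm38.p6), 5′ to 3′ on the strand of the gene, and capitals mark matches to the motifs described further on.

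Mrpl45, chr11:97315566-97315745, plus strand: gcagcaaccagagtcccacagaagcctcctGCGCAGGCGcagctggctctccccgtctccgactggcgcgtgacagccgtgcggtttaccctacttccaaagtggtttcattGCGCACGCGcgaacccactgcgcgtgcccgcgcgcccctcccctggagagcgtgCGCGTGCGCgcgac

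Mrpl35, chr6:71823755-71823934, minus strand: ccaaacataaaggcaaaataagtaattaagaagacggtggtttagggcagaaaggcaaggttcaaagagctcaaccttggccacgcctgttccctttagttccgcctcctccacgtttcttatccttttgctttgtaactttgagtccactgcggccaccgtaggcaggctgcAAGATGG

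Mrpl51, chr6:125192050-125192229, plus strand: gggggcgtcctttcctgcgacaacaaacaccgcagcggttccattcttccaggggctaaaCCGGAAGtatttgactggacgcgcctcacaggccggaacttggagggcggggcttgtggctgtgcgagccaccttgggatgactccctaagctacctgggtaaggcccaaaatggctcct

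Mrpl52, chr14:54426759-54426938, plus strand: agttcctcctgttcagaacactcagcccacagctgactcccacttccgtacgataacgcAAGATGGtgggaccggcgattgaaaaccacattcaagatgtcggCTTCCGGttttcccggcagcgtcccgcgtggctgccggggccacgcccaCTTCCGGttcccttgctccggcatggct

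Mrps17, chr5:129715347-129715526, plus strand: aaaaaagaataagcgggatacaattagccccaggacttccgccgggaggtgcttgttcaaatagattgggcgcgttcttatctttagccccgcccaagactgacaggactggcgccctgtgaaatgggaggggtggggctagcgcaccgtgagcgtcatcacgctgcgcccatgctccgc

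Mrps10, chr17:47369047-47369226, plus strand: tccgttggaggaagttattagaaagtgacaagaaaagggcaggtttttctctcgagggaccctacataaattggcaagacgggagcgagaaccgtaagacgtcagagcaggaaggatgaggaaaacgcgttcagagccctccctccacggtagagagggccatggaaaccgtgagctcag

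Mrpl45 had the most negative difference of the set. Mrpl45 (probe set 17255762, Entrez gene 67036), which lies at the exit of the large subunit and is a relative of a yeast protein that tethers the ribosome to the inner membrane, had log2 signals of 6.15, 6.09, 6.23, 6.17 and 5.79 on WT arrays 1 to 5 and of 5.36, 5.64, 5.43, 5.47 and 5.69 on Stk11 deletion arrays 1 to 5. Every Stk11 deletion array was below every WT array, although WT array 5 came within about 0.10 of the highest of them. Its level was 1.48-fold lower (-0.57, SE 0.11, limma adjusted p = 0.0303). Mrpl35 (probe set 17467656, Entrez gene 66223), a large subunit protein with a bacterial relative, had log2 signals of 7.58, 7.44, 7.52, 7.42 and 7.42 on WT arrays 1 to 5 and of 6.996, 6.80, 7.15, 6.77 and 7.10 on Stk11 deletion arrays 1 to 5. The WT arrays were tightly grouped and the Stk11 deletion arrays lay clear below them. The difference was -0.51 (SE 0.10, limma adjusted p = 0.0303). Mrpl51 (probe set 17463140, Entrez gene 66493), a large subunit protein known only from mitochondria, had log2 signals of 6.66, 6.57, 6.62, 6.71 and 6.61 on WT arrays 1 to 5 and of 5.96, 5.85, 6.18, 6.24 and 6.39 on Stk11 deletion arrays 1 to 5. Arrays 1 and 2 were lowest in the Stk11 deletion group and array 5 the nearest to WT. It differed by -0.51 (SE 0.11, limma adjusted p = 0.0445). Mrpl52 (probe set 17300273, Entrez gene 68836), also known only from mitochondria, had log2 signals of 10.76, 10.85, 10.77, 10.83 and 10.75 on WT arrays 1 to 5 and of 10.51, 10.30, 10.45, 10.29 and 10.27 on Stk11 deletion arrays 1 to 5. The groups were far apart for their spread, with an SD of 0.044 in WT and 0.11 in the Stk11 deletion group (n = 5 each). It had a difference of -0.43 (SE 0.082, limma adjusted p = 0.0315).

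Both called genes of the small subunit have bacterial relatives. Mrps17 (probe set 17548479, Entrez gene 66258), a protein that binds the ribosomal RNA early in assembly of the bacterial small subunit, had log2 signals of 8.39, 8.36, 8.40, 8.24 and 8.34 on WT arrays 1 to 5 and of 7.70, 7.87, 8.12, 7.66 and 7.92 on Stk11 deletion arrays 1 to 5. Stk11 deletion array 3 was the closest to WT and array 4 the furthest. The difference was -0.49 (SE 0.10, limma adjusted p = 0.0398). A second probe set of the gene differed by -0.24 and did not pass (limma adjusted p = 0.215, all probe sets tested). Mrps10 (probe set 17338233, Entrez gene 64657), a protein of the head of the small subunit, had log2 signals of 6.13, 6.31, 6.25, 6.26 and 6.24 on WT arrays 1 to 5 and of 5.60, 5.98, 5.77, 5.75 and 5.79 on Stk11 deletion arrays 1 to 5. Array 1 was lowest and array 2 highest in the Stk11 deletion group, and the groups did not overlap. It was 1.38-fold lower (-0.46, SE 0.089, limma adjusted p = 0.0327).

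**Figure D4:**
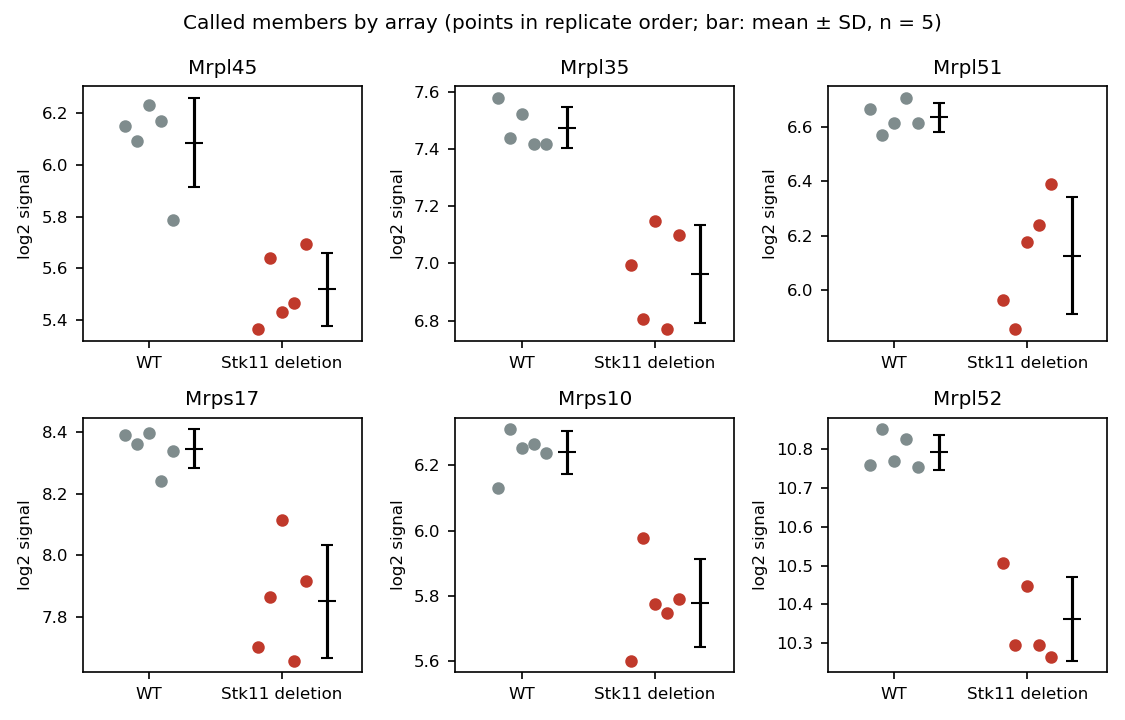
Log2 signal of the 6 called genes on each of 5 WT (grey) and 5 Stk11 deletion (red) arrays, in replicate order, with the mean and SD of each group in black. The vertical scale of each panel is its own and does not start at 0. In each panel all red points lie below all grey ones.

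Leaving out 1 array in turn, limma called 0 members without WT array 1, 2, 3 or 4 or without Stk11 deletion array 4, and 28, 28, 29, 28 and 29 members were lower there at an unadjusted p under 0.05. It called 1 member without WT array 5 and, without Stk11 deletion arrays 1, 2, 3 and 5, 7, 2, 3 and 5, and all 6 genes named above were among the 7. Mrpl45 stayed past the threshold in 4 of these 10 fits, Mrpl35 in 3, and Mrpl51, Mrpl52, Mrps17 and Mrps10 in 2 each, with adjusted p up to 0.119, in Mrpl51. Over all genes, 30 to 142 were called lower without any 1 array other than Stk11 deletion array 1 and 340 without that array, against 184 with all arrays. The median difference over the members in them ran from -0.30 to -0.22. Within replicates 1 to 3 alone, which carry a run of description codes of their own, limma called 0 members (28 lower at an unadjusted p under 0.05, median -0.31), and within replicates 4 and 5 also 0 (16 lower, median -0.22). Within replicates 1 to 3 it called 0 of all 22180 genes, so the 0 there says nothing particular to the members. Within replicates 4 and 5 it called 46 of all genes lower and 423 higher. The shares of all genes at the unadjusted p were not counted in these fits. Without Stk11 deletion arrays 1, 4 and 5 limma called Mrpl51 (-0.62, adjusted p = 0.0303) and Mrps28 (-0.79, adjusted p = 0.0115), and with the marker means as covariates the same genes (adjusted p = 0.0269 and 0.0134). The other called genes were at -0.55 (Mrpl45), -0.50 (Mrpl35), -0.42 (Mrpl52), -0.35 (Mrps17) and -0.36 (Mrps10) without the 3 arrays.

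The large subunit binds the translation factors through a stalk made of Mrpl12 copies on Mrpl10, next to Mrpl11. Mrpl12 gave 7.39, 7.44, 7.42, 7.52 and 7.44 on WT and 6.69, 6.78, 7.06, 6.96 and 7.37 on Stk11 deletion arrays. The groups did not overlap, since array 5 of the second group, the highest there, was just under the lowest WT value, and the difference of -0.47 (SE 0.12) missed the threshold (limma adjusted p = 0.0901). It passed without Stk11 deletion array 5 (-0.57, adjusted p = 0.0283), whose removal had to enlarge the difference. A second Mrpl12 probe set was at -0.24 (limma adjusted p = 0.262). Mrpl11 had a mean of 7.87 ± 0.13 over WT arrays and of 7.46 ± 0.28 over Stk11 deletion arrays (SD, n = 5 each), with array 4 the lowest, at 6.99, and overlapping groups (-0.41, limma adjusted p = 0.176). Mrpl10, the base of the stalk, differed by -0.088 (95% confidence interval -0.35 to 0.18), and its second probe set by 0.048. No shift of that gene was detectable, and its interval does not show that it stayed level.

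Around the peptidyl transferase centre, where peptide bonds are made, the genes differed among themselves. Mrpl2 gave 7.70, 7.57, 7.48, 7.61 and 7.41 on WT and 6.92, 7.33, 7.32, 6.95 and 7.005 on Stk11 deletion arrays. Arrays 1, 4 and 5 were the lowest and the groups did not overlap (-0.45, SE 0.11, limma adjusted p = 0.0783). Without those arrays its difference was -0.23, and leaving out the lowest arrays had to shrink it. Mrpl3, on the other hand, was at -0.15 (95% confidence interval -0.38 to 0.075), and Mrpl27, a small protein whose bacterial relative reaches towards the transfer RNAs, at 0.11 (-0.29 to 0.51). Mrpl27 was the only Mrpl gene with a positive difference. It was 5.55, 5.58, 5.56, 6.16 and 6.08 on Stk11 deletion arrays 1 to 5, with arrays 4 and 5 above the WT range of 5.08 to 6.01. Its sign turned without WT array 5 (-0.043) and without Stk11 deletion arrays 1, 4 and 5 (-0.11). RefSeq lists pseudogenes of Mrpl27, Mrpl23, Mrpl48 and Mrps36, and whether these probe sets also detect them is not known.

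The other genes of the exit tunnel had differences closer to 0 than that of Mrpl45. Mrpl24 gave 9.51, 9.54, 9.60, 9.44 and 9.50 on WT and 9.02, 9.36, 9.32, 9.44 and 9.42 on Stk11 deletion arrays, 5 of 5 below the WT range (array 4 by less than the decimals shown), with a difference of -0.21 (SE 0.10, limma adjusted p = 0.351). The value of array 1 stood 0.29 below the next. Mrpl23 was at -0.28, Mrpl17 at -0.14 and Mrpl47 at -0.21, none of them past the test (limma adjusted p = 0.241, 0.600 and 0.715). Mrpl22 was at -0.024 (95% confidence interval -0.31 to 0.26), with WT array 5 the lowest of its group at 6.56. Its sign was positive after a second quantile normalization, at 0.040.

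Mrpl32, which the m-AAA protease trims before it enters the ribosome, had log2 signals of 7.38, 7.59, 7.40, 7.65 and 7.07 on WT and 6.45, 7.38, 7.15, 7.20 and 7.20 on Stk11 deletion arrays. Only array 1 was below the WT range, and the other 4 lay inside it (-0.34, SE 0.17, limma adjusted p = 0.397). Mrpl58, a peptidyl-tRNA hydrolase that frees stalled ribosomes, was at -0.17 (-0.45 to 0.12), with Stk11 deletion arrays 3, 4 and 5 below the WT range and array 1 above it. Of the genes near the central protuberance, which faces the small subunit, Mrpl46 was at -0.33, Mrpl48 at -0.27, Mrpl18 at -0.43, Mrpl38 at -0.15 and Mrpl40 at -0.059. Mrpl18 was the only one of these whose groups did not overlap (limma adjusted p = 0.170). Mrpl40 had a 95% confidence interval of -0.24 to 0.13, among the narrowest of the set. Mrpl54 was at -0.43 with overlapping groups (limma adjusted p = 0.155). Mrpl36 was at -0.29, Mrpl49 at -0.24, Mrpl42 at -0.23, Mrpl37 at -0.077 and Mrpl4 at -0.073. Mrpl4 had 3 Stk11 deletion arrays above the WT range and 2 below it, and its sign turned to 0.056 without Stk11 deletion array 1. The remaining Mrpl genes were Mrpl15, Mrpl13, Mrpl21, Mrpl16, Mrpl19, Mrpl14, Mrpl9, Mrpl39, Mrpl57, Mrpl28, Mrpl50, Mrpl20, Mrpl1, Mrpl55 and Mrpl34, with differences from -0.39 to -0.11 and adjusted p from 0.135 to 0.727 (limma).

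In the small subunit Mrps28, a mitochondrial relative of the largest bacterial small subunit protein, had the most negative difference. It gave 7.76, 7.67, 7.73, 7.57 and 7.61 on WT and 7.31, 6.74, 7.01, 7.04 and 7.45 on Stk11 deletion arrays. Arrays 2 to 4 lay furthest below WT, no Stk11 deletion array reached the WT range, and the difference of -0.56 (SE 0.13) narrowly missed the threshold (limma adjusted p = 0.0567). It passed with the covariates and without arrays 1, 4 and 5, as given above, where arrays 1 and 5, the nearest to WT, were left out. Mrps5, near the entry of the messenger RNA, was at -0.45 with no overlap (SE 0.14, limma adjusted p = 0.144), and a second probe set at -0.52 (limma adjusted p = 0.135). Mrps35 was at -0.44, Mrps7, of the head, at -0.36, and Mrps2 at -0.23, with groups that overlapped.

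Mrps22, Mrps16 and Mrps34 are known from inherited disorders of the human mitochondrial respiratory chain. Mrps22 gave 6.68, 6.46, 6.80, 6.60 and 6.76 on WT and 5.59, 6.33, 6.38, 6.33 and 6.34 on Stk11 deletion arrays. Array 1 was far below the rest of its group, which lay close together just under the WT range (-0.46, SE 0.15, limma adjusted p = 0.173). Mrps34 had a mean of 7.55 ± 0.13 over WT arrays and of 7.26 ± 0.12 over Stk11 deletion arrays (SD, n = 5 each), without overlap (-0.29, limma adjusted p = 0.176). Its value of 7.79 on WT array 1 was the highest. Mrps16 differed by -0.32 with overlap (limma adjusted p = 0.225), and by -0.54 on its second probe set (limma adjusted p = 0.0700). Mrps23 had no overlap (-0.37, limma adjusted p = 0.135), with the Stk11 deletion arrays between 7.18 and 7.29, the smallest SD of that group among the members. The other Mrps genes not described elsewhere were Mrps33, Mrps25, Mrps9, Mrps31, Mrps26, Mrps27, Mrps15, Mrps11 and Mrps21, from -0.35 to -0.083 (limma adjusted p = 0.195 to 0.766).

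Of the 5 members with positive differences, 4 were Mrps genes, and none passed the test. Mrps12, a protein of the decoding centre, had a mean of 7.75 ± 0.076 over WT arrays and of 7.81 ± 0.18 over Stk11 deletion arrays (SD, n = 5 each), a difference of 0.062 (95% confidence interval -0.15 to 0.28). Mrps24 was at 0.014 (-0.21 to 0.24), and its sign turned when array medians were subtracted (-0.026). Mrps14, of the head of the small subunit, gave 4.38, 4.76, 4.97, 4.77 and 4.21 on WT and 5.28, 4.90, 5.10, 4.78 and 5.07 on Stk11 deletion arrays. Arrays 1, 3 and 5 were above the WT range and the other 2 inside it (0.41, SE 0.15, limma adjusted p = 0.231). These values lay around or under the array medians over all genes (4.99 to 5.10), a part of the scale where signal cannot be told from background. The same holds for Mrps36, at 4.24, 4.60, 4.71, 4.59 and 4.26 on WT and 4.57, 4.95, 4.50, 5.17 and 4.05 on Stk11 deletion arrays, whose groups overlapped (0.17, limma adjusted p = 0.741).

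Mrps18a, Mrps18b and Mrps18c descend from a single bacterial gene, and Mrps18a, like Mrps30, sits in the large subunit. Mrps18c gave 6.95, 6.52, 6.71, 6.67 and 6.64 on WT and 6.43, 6.35, 6.52, 6.37 and 6.49 on Stk11 deletion arrays, with all Stk11 deletion arrays just below the WT range, array 3 by less than the decimals shown (-0.27, limma adjusted p = 0.219). A second probe set of the gene was at -0.060. Mrps18b was 7.97, 7.76, 7.88, 7.78 and 8.02 on WT and 8.87, 7.34, 7.40, 7.31 and 7.71 on Stk11 deletion arrays. There 4 arrays lay below the WT range, while array 1 was far above it, and the pooled difference was -0.16 (95% confidence interval -0.70 to 0.39). Without Stk11 deletion array 1 it was -0.44 (limma adjusted p = 0.0535), a change forced by which array was left out. Its second probe set was at -0.25 (limma adjusted p = 0.701). Mrps18a was at -0.11 (-0.35 to 0.13) and Mrps30 at -0.39 (-0.73 to -0.041), both with overlapping groups. Differences between the Mrps18 paralogues were not tested.

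Other genes of mitochondrial gene expression leaned the same way, with few past the test. Of 73 listed genes 70 were measured, 60 had a negative difference, 2 were called lower and 0 higher, and the median was -0.20. At an unadjusted p under 0.05 (limma) 34.3% of them were lower. Over all genes 49.2% were negative, 0.83% called lower and 8.8% lower at an unadjusted p under 0.05. Among genes above the dimmest 40%, 58.2% were negative and 13.7% lower at that p. The lists were chosen with earlier results of these data known. Ribosomal proteins with other names had 3 of 5 measured, 0 called (1 lower at an unadjusted p under 0.05): Gadd45gip1 at -0.40 with no overlap (limma adjusted p = 0.114), Dap3, a GTP-binding protein of the small subunit, at -0.16 and Ptcd3 at -0.081. In the list of 28 ribosome assembly and RNA modification genes the median was -0.15, with 25 negative and 0 called (9 lower and 0 higher at an unadjusted p under 0.05). Mpv17l2, an assembly factor of the inner membrane, was at -0.68 (limma adjusted p = 0.0555) and the GTPases Mtg1 and Gtpbp10 at -0.66 and -0.61. Afg3l2, a subunit of the protease that trims Mrpl32, was at -0.32 with no overlap (limma adjusted p = 0.114).

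Translation factors had a median of -0.29 over 14 of 15 genes, 13 of them negative, 0 called and 7 lower at an unadjusted p under 0.05. Mrrf, which recycles ribosomes after termination, gave 6.39, 6.71, 6.66, 6.88 and 6.55 on WT and 5.39, 5.38, 6.02, 5.93 and 6.38 on Stk11 deletion arrays. The groups did not overlap, and Stk11 deletion array 5 was the nearest to WT (-0.82, SE 0.18, limma adjusted p = 0.0552). Gfm1, the elongation factor that moves the ribosome along the message, was at -0.35 with no overlap (limma adjusted p = 0.0871), Tufm, which delivers transfer RNAs, at -0.44 and the release factor gene Mtrf1 at -0.37. The list of mitochondrial DNA maintenance and transcription had 13 of 16 negative and 0 called (5 lower and 1 higher at an unadjusted p under 0.05), with a median of -0.23. Hsd17b10 and Prorp, subunits of mitochondrial RNase P, were at -0.50 (limma adjusted p = 0.0531) and -0.41, the packaging and transcription factor Tfam at -0.54 (limma adjusted p = 0.201) and the polymerase subunit Polg2 at 0.32. Of 9 regulators of nuclear genes for mitochondria, 6 had a negative difference, 2 were called lower and 0 higher. Myc fell (-0.76, SE 0.15, limma adjusted p = 0.0398) and so did the coactivator gene Pprc1 (-0.48, SE 0.10, limma adjusted p = 0.0495). Neither was called without Stk11 deletion array 4 or 5 or without any 1 WT array, and Pprc1 also not without array 2 or 3. Without Stk11 deletion arrays 1, 4 and 5 Myc was at -0.47 (limma adjusted p = 0.0557) and Pprc1 at -0.44 (limma adjusted p = 0.104). The GABP subunit genes Gabpa and Gabpb1 were at -0.20 and -0.26, not past the test, and Gabpb1 turned to 0.10 without Stk11 deletion arrays 1, 4 and 5. The 3 regulators with positive differences were Ppargc1a at 0.17, Esrra at 0.057 and Nrf1 at 0.046, none past the test, each with a negative value under at least 1 alternative. They were named after their values were seen.

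**Figure D5:**
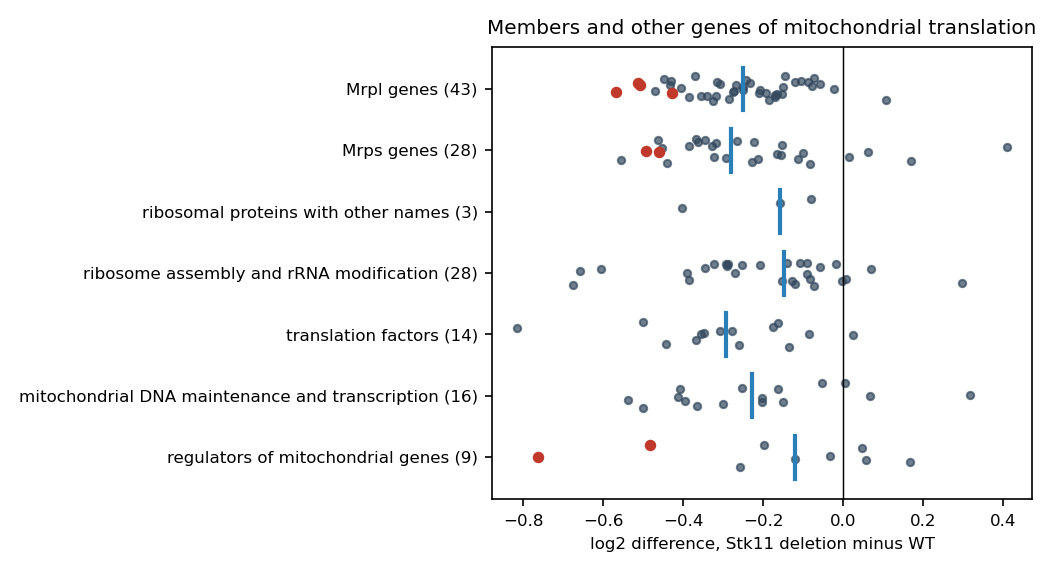
Log2 difference, Stk11 deletion minus WT, of the Mrpl and Mrps genes and of 5 lists of other genes of mitochondrial gene expression, with the number measured in brackets. Points are genes, spread vertically for sight only, red points are called by limma and blue bars are medians, which run from -0.28 (Mrps) and -0.29 (translation factors) to -0.12 (regulators).

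The promoters of these genes, which the choice of genes did not use, held some motifs more often than other promoters and others not. RefSeq windows of 300 bases (250 before and 50 after the start) were found for 62 of the 71 members. Those not matched were Mrpl13, Mrpl15, Mrpl19, Mrpl38, Mrpl4, Mrpl54, Mrps28, Mrps34 and Mrps35. Both strands were searched. Members were counted as genes with a match in any of their windows, whereas the wider sets were counted as windows, so the shares are not fully alike. The ETS core CCGGAAG, the kind of site that GABP binds, was in windows of 23 of the 62 genes (37.1%), against 8.86% of all 32851 windows and 11.4% of the 20520 windows of genes on the array. The NRF1 core GCATGCG was in 7 (11.3% against 3.58% of all windows and 4.58% of those on the array), the E-box CACGTG in 5 (8.06% against 7.15% and 8.10%) and the TATA box TATAAA in 5 (8.06% against 13.6% and 12.3%). A looser NRF1 core with a free base, GCGCANGCG, which overlaps the first in part, was in 14 (22.6% against 6.25% and 8.68%), and the YY1 core AAGATGG in 13 (21.0% against 6.34% and 6.36%). The last 2 were chosen after promoters of members had been looked at. A match describes the letters in the window and is no evidence that the factor binds there.

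In the printed windows Mrpl51 holds 1 ETS core, Mrpl52 holds 2 ETS cores and 1 YY1 core, Mrpl45 holds 3 of the looser NRF1 cores and Mrpl35 holds 1 YY1 core just after its start. The windows of Mrps17 and Mrps10 as printed hold none of the 6 motifs. Genes with an ETS core had a median difference of -0.21 (23 genes, 2 called) and genes without one -0.25 (39 genes). With and without the looser NRF1 core the medians were -0.25 (14 genes) and -0.24 (48 genes), and with and without the E-box -0.27 (5 genes) and -0.24 (57 genes). With and without the first NRF1 core they were -0.16 (7 genes) and -0.25 (55 genes), with and without the YY1 core -0.23 (13 genes) and -0.25 (49 genes), and with and without the TATA box -0.32 (5 genes) and -0.23 (57 genes). Genes with and without each of the 6 motifs had negative medians, and no test of the gaps was made.

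Many members start back to back with another gene. Of the 62 genes, 23 had a RefSeq gene on the other strand, transcribed away from them, whose start lay within 1000 bases, and all 23 such neighbours were measured. Of these neighbours 2 are members themselves. The other 21 were negative in 17 cases, where 49.2% of all genes were negative, with 0 called by limma and a median of -0.080, against -0.24 for the members beside them. Members with no such neighbour had a median of -0.25 (39 genes). The only pair made of 2 members was Mrpl46 and Mrps11, whose starts lie 42 bases apart. Mrpl46 was at -0.33 (95% confidence interval -0.57 to -0.087) and Mrps11 at -0.10 (-0.36 to 0.16), and these intervals overlap. Among other pairs, named after their values were seen, Mrpl51 was at -0.51 beside Ncapd2 at -0.0060, Mrpl18 at -0.43 beside the chaperonin gene Tcp1 at -0.31, Mrpl32 at -0.34 beside the proteasome gene Psma2 at -0.22, and Mrps12 at 0.062 beside the mitochondrial seryl-tRNA synthetase gene Sars2 at -0.13. Mrps5 was at -0.45 and its neighbour Zfp661 at -0.027. The 71 members lie on 17 chromosomes, with 11 on chromosome 11 and 8 on chromosome 17.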

How the data were processed

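The deposited table held log2 values for 41345 probe sets on 10 arrays. Per the submitters' processing notes, RMA and Partek 6.6 were used, and the sources used here do not give their order or settings. Per the labels' protocols, a few nanograms of RNA were amplified with a NuGEN kit, which can distort transcript levels. RMA's quantile step hides any shift shared by all transcripts. No detection calls were used, so low values cannot be told from background, and the number of arrays limits the precision. Platform annotation named 1 gene for 23521 probe sets, several for 1814 and none for 16010. The probe set with the highest mean stood for each gene, which gave 22180 genes, none filtered. Groups and replicate numbers came from the titles.

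The model was limma 3.58.1 in R 4.3.3 (lmFit, eBayes, 4.36 prior degrees of freedom) on all arrays without covariates, with Benjamini-Hochberg adjustment over all genes at 0.05. Its code was tested on simulated data. The members, the gene lists and the motifs were chosen with earlier results of these data known. Named genes followed a rule: Stk11, called members, in each subunit the 6 lowest and 4 highest differences and the 3 highest and 2 lowest WT means, fixed members of known role, the Mrps18 genes, Mrps30 and Mrps36, and up to 4 genes of each other list by p, with members whose probe sets differ in sign. All other members are named with their range. Promoters came from RefSeq (GRCm38.p6). The promoters planned were the 2 of each subunit with the smallest p, and those of the other called genes were added. The planned protein sequences are not used here. Alternatives were other probe set summaries, filters, scalings, priors, weights, blocks and left-out arrays. The description codes in the labels run from 1 to 6 for replicates 1 to 3 and from 7 to 10 for replicates 4 and 5, and what they stand for is not stated.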

Additional observations from a re-analysis of the deposited data

Results flagged for a closer look

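In 128 groups of 5 arrays (WT and Stk11 deletion for each named gene), 10 had a lowest or highest array whose gap to the next exceeded 0.71 of the group's range, a limit that chance passes in about 1 group in 20. Stk11 deletion array 1 was the array apart in 7 of the 10. It was the lowest for Mrpl24 (9.02), Mrpl32 (6.45), Mrpl4 (7.23), Mrps22 (5.59) and Mrps7 (6.08), and the highest for Mrps18b (8.87) and Prorp (6.37). Stk11 deletion array 4 was apart for Gadd45gip1, the lowest at 6.37. In the WT group array 5 was the lowest for Mrpl22 (6.56) and array 1 the highest for Mrps34 (7.79). On Stk11 deletion array 1 the mean of the Treg markers was below the WT range (10.02 against 10.64 to 10.72), the means of the macrophage (8.12 against 7.51 to 7.99), B cell and NK cell markers were above it, and their part in these values was not tested.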

How the results depend on the processing

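The member and subunit medians kept a negative sign under every alternative run, and no member was called higher in any. Called lower were 3 members after a second quantile normalization (0.464% of all genes) and 3 without moderated variances (0.595%). There were 2 without Stk11 deletion arrays 1, 4 and 5 (0.915%) and 2 with the marker covariates (0.757%). The count was 0 at an adjusted p under 0.01 and 0 to 7 with 1 array left out. With the replicate number as a block (replicate block) limma called 0 members and 32 were lower at an unadjusted p under 0.05. Of all genes that fit called 36 lower (0.162%) and 14 higher, so 0 members is near the share of all genes. Deviations of same-numbered arrays correlated at -0.079 to 0.10. That gives no sign of a pairing by number but cannot exclude one, and the titles do not settle it. Within description codes 1 to 6 and 7 to 10 alone limma called 0 and 0 members, with 28 and 16 lower at an unadjusted p under 0.05. Of all genes it called 0 within codes 1 to 6, and 46 lower and 423 higher within codes 7 to 10. In those runs the member median was -0.31 and -0.22. After a second quantile normalization the median of all members was -0.20 and that of the Mrps genes -0.22. With array medians subtracted the Mrps median was -0.32. Leaving out 1 array gave Mrps medians of -0.31 to -0.23 and a gap between subunits of -0.035 to 0.057, whose sign is not settled.

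Of the other genes of mitochondrial translation, 5 were called without the dimmest 40% of genes, 5 with array medians subtracted, 5 with a trended robust prior, 6 with array quality weights, 1 after a second quantile normalization, 1 within codes 7 to 10, 1 without the 3 arrays and 1 with the covariates. The count was 0 without moderated variances, with the replicate block, within codes 1 to 6 and at 0.01, and 0 to 6 with 1 array left out. These counts take both directions. Over all genes 0.83% were called lower in the model used throughout. That share was 2.13% without the dimmest 40%, 1.28% with medians subtracted, 1.38% with the trended prior and 1.48% with array weights. It was 0.464% after the second quantile normalization, 0.915% without the 3 arrays and 0.757% with the covariates. It was 0.595% without moderated variances, 0.162% with the replicate block and 0.207% within codes 7 to 10. The causes were not tested.

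Signs turned only in genes that were not called, given here for all members and, of the other lists, for the genes chosen by the naming rule. With the covariates they were Mrpl10 (4.2e-04), Mrpl55 (0.036), Mrpl27 (-0.060), Mrpl4 (0.073), Mrps24 (-0.079), Dap3 (0.086), Gabpb1 (0.090) and Ptcd3 (0.0040). Without the 3 arrays they were Mrpl1 (0.0071), Mrpl55 (0.049), Mrps11 (0.036), Mrpl27 (-0.11), Mrpl4 (0.080), Mrps24 (-0.046), Dap3 (0.066) and Gabpb1 (0.10). Within codes 1 to 6 they were Mrpl10 (0.12), Mrpl27 (-0.27), Mrpl37 (6.6e-04), Mrpl58 (0.048), Mrpl55 (0.0017) and Mrps18b (8.9e-04), and within codes 7 to 10 Mrpl47 (0.22), Mrpl14 (0.14), Mrpl1 (0.088), Mrpl34 (0.0091), Mrpl17 (0.0029), Mrpl38 (0.11), Mrpl4 (0.036), Mrpl42 (0.078) and Mrps24 (-0.10). A second quantile normalization turned Mrpl22 (0.040) and Mrpl40 (0.0036), subtracted medians Mrps24 (-0.026), array weights Mrpl4 (0.0017) and Mrps24 (-0.0092), and the second probe set Mrpl10 (0.048). With 1 array left out Mrpl1 ranged over -0.26 to 0.017, Mrpl22 over -0.10 to 0.060, Mrpl27 over -0.043 to 0.19, Mrpl37 over -0.16 to 0.0052, Mrpl4 over -0.12 to 0.056 and Mrps24 over -0.033 to 0.065.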
